A study of Mus musculus with 12 samples.

Results

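The genes described here encode 10 cytokine receptor chains, Il7r, Il2rb, Il2rg, Il6ra, Il21r, Il12rb2, Il18r1, Il27ra, Il4ra and Ifngr1. They were named as a list and are 10 of the 31053 genes of the count tables. All 10 passed the filter on low counts and were tested. The cells came from pancreatic islets of female NOD mice, a strain with spontaneous autoimmune diabetes, taken at 12 weeks of age before the onset of diabetes. Live T cells bearing the TCR beta chain were sorted and profiled by CITE-seq, which reads mRNA molecules and barcoded antibodies from the same cell, in 4 replicates that each gave an mRNA library and a T cell receptor library. No animal was treated or carried an engineered allele according to the labels. These do not say whether a replicate was 1 mouse or a pool, so p-values measure the spread between these 4 samples only.

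Each library was divided into 3 lineages with fixed gates. CD8 cells had an antibody CD4 count under 20 and at least 2 UMIs of Cd8a and Cd8b1 together. Treg, the regulatory lineage, had a CD4 count of at least 40, no Cd8a or Cd8b1 UMI and at least 1 Foxp3 UMI. CD4 conventional cells met the same gate with no Foxp3 UMI. These gates held 4140 CD8 cells, 1169 Treg and 10897 CD4 conventional cells of 22116 kept cells. Within each lineage, CD62L-low cells had an antibody CD62L count of 3 or fewer and CD62L-high cells one of 10 or more. CD62L is the lymph node homing receptor that naive and central memory T cells carry. CD62L-low cells were further divided into expanded cells, whose TRA and TRB sequences occurred in at least 2 cells of the library, and single cells, whose sequences occurred once.

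Most of these receptors are built from shared parts. The product of Il2rg, the common gamma chain, pairs with the Il7r product to bind IL-7, with the Il2rb product to bind IL-2 and IL-15, with the Il21r product to bind IL-21 and with the Il4ra product to bind IL-4. IL-7 keeps naive and memory T cells alive, while the beta chain encoded by Il2rb is a hallmark of memory CD8 cells and of Treg. The Il6ra and Il27ra products signal through gp130, encoded by Il6st. Il12rb2 and Il18r1 encode receptor chains for IL-12 and IL-18, cytokines that drive interferon gamma, and Ifngr1 encodes the ligand-binding chain of the interferon gamma receptor.

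2 antibody tags were used in the gates, CD4 for the lineages together with Cd8a, Cd8b1 and Foxp3 UMIs, and CD62L for the CD62L classes. The 3 promoters belong to Il7r, Il6ra and Il4ra. Levels of these genes were lower in CD62L-low than in CD62L-high cells in every library of all 3 lineages. In the promoters, capitals mark matches to a STAT palindrome, TTCNNNGAA, a KLF core, CCACCC, a forkhead core, TAAACA, or an ETS core, CCGGAAG, on either strand. The promoter windows run from 250 bases before to 50 after a transcript start of the gene. For Il7r this start lies inside the gene coordinates given below, not at their outer end. The windows are read on the gene's strand from RefSeq sequence of GRCm38.p6 and are not NOD sequence. A GGGTGG in capitals is CCACCC on the other strand.
CD4 antibody tag: aacaagacccttgag
CD62L antibody tag: tgggcctaagtcatc
Il7r, chr15:9529827-9530126, minus strand: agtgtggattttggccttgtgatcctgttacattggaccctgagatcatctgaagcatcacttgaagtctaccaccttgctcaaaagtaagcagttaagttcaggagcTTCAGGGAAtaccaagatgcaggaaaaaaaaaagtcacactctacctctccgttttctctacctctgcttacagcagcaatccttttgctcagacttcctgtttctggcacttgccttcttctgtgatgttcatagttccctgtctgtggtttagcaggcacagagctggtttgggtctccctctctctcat
Il6ra, chr3:89913147-89913446, minus strand: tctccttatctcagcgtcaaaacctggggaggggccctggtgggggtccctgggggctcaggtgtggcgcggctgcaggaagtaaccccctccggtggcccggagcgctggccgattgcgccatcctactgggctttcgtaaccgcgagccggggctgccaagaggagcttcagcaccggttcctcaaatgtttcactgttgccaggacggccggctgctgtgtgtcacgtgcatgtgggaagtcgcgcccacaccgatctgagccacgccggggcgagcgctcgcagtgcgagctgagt
Il4ra, chr7:125552021-125552320, plus strand: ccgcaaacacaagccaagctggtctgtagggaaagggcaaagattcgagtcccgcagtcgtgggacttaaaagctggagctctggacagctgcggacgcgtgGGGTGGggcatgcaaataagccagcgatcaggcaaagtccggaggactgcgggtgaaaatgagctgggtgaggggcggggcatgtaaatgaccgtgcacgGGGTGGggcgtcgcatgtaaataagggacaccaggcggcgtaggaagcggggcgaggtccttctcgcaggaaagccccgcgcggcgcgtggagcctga
The Il7r window held 1 STAT palindrome, a pattern found in 8.30% of 32851 RefSeq promoter windows of the same length. The Il4ra window held 2 KLF cores, and 31.5% of all windows held at least 1. None of the 4 motifs matched in the Il6ra window. Il4ra and Il21r lie next to each other on chromosome 7 with 23777 bases between them, and Il18r1 lies 14507 bases before Il18rap, the gene of its partner chain, on chromosome 1.

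Libraries 1 to 4 held 6175, 4136, 8718 and 8394 barcodes, with a median of 3808, 4163, 2858 and 2617 UMIs per kept cell. Replicates 3 and 4 stood apart. An antibody count under 20 for CD11a, an integrin chain of T cells, was found in 36.3% and 29.4% of their kept cells, against 4.19% and 5.21% in replicates 1 and 2. Of the kept cells, 84.5%, 85.0%, 56.9% and 63.2% had a TRB chain. Among CD62L-low CD8 cells alone, 3.18%, 3.50%, 35.7% and 22.3% had a CD11a count under 20. Between 36 and 102 barcodes were shared by any 2 mRNA libraries, so few cells can be counted under another library. Calls that did not hold in replicates 1 and 2 alone are therefore given below with their values.

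UMIs were summed per population and library, and levels are given in CPM, the gene's UMIs scaled to the UMI total of the sum. Levels are compared between populations and never between genes, because transcripts of different genes can be captured with different efficiency. In a sum, fewer cells with a transcript and fewer transcripts per cell cannot be told apart. The counts do not tell splice forms apart, and they do not measure protein at the cell surface. Il2ra, the high-affinity IL-2 receptor chain that marks Treg and was not used in the gate, averaged 185 against 34.2 CPM in CD62L-low Treg and CD4 conventional cells, a log2 fold change of 2.38 ± 0.35 (adjusted p = 0.000116).

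Il7r (chr15:9506159-9529941, minus strand) was lowest in CD62L-low Treg and in CD62L-low CD8 cells. In CD8 cells, replicates 1 to 4 gave 136, 153, 72.2 and 78.7 CPM in CD62L-low cells and 308, 345, 263 and 342 CPM in CD62L-high cells. In Treg the levels were 46.7, 50.9, 78.0 and 53.2 CPM in CD62L-low cells and 100.5, 197, 176 and 56.8 CPM in CD62L-high cells. CD4 conventional cells gave 186, 280.3, 325 and 289 CPM when CD62L-low and 462, 453, 397 and 365 CPM when CD62L-high. Every library had less Il7r in CD62L-low than in CD62L-high cells in all 3 lineages, without overlap between the groups in CD8 and CD4 conventional cells and with overlap in Treg. By mean, the order from high to low was CD62L-high CD4 conventional, CD62L-high CD8, CD62L-low CD4 conventional, CD62L-high Treg, CD62L-low CD8 and CD62L-low Treg cells. The first population in that order stood clear of the next, and the libraries of all other neighbours overlapped.

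Il2rb (chr15:78479256-78511621) ran the other way. Among CD62L-high cells its libraries did not overlap between any of the lineages. Among CD62L-low cells those of CD8 and CD4 conventional cells overlapped. CD8 cells gave 264, 298, 287 and 273 CPM when CD62L-low and 163, 221, 182 and 188 CPM when CD62L-high. In Treg the levels were 488, 457, 455 and 371 CPM in CD62L-low cells and 303, 394, 434 and 405 CPM in CD62L-high cells. CD4 conventional cells gave 217, 267, 256 and 265 CPM when CD62L-low and 35.9, 53.8, 73.3 and 72.0 CPM when CD62L-high. CD62L-low libraries were all above CD62L-high ones in CD8 and in CD4 conventional cells, while the groups overlapped in Treg. CD62L-high CD4 conventional cells were the only one of the 6 populations under 100 CPM in every library. By mean, Treg came first, CD62L-low before CD62L-high, followed by CD62L-low CD8, CD62L-low CD4 conventional and CD62L-high CD8 cells, and among these CD62L-high Treg and CD62L-low CD8 cells were the only neighbours whose libraries did not overlap. CD62L-high CD8 and CD62L-high Treg cells carried the transcript at a mean of 188 ± 23.9 and 384 ± 56.6 CPM (SD, n = 4 each).

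Il6ra (chr3:89869324-89913196, minus strand) was lowest in CD62L-low CD8 cells. Replicates 1 to 4 gave 29.3, 34.2, 12.2 and 10.3 CPM in CD62L-low CD8 cells and 90.3, 128, 70.3 and 112 CPM in CD62L-high CD8 cells. In Treg the levels were 54.3, 51.4, 47.4 and 48.4 CPM in CD62L-low cells and 102, 120.1, 115 and 60.4 CPM in CD62L-high cells. CD4 conventional cells gave 112, 119, 122 and 109 CPM when CD62L-low and 195, 182, 168 and 174 CPM when CD62L-high. The CD62L-low libraries lay under all CD62L-high libraries in each lineage. CD62L-low CD8 cells lay under every other population in every library, and CD62L-high CD4 conventional cells lay above every other population. CD62L-high CD8, CD62L-high Treg and CD62L-low CD4 conventional cells overlapped with each other.

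**Figure D1:**
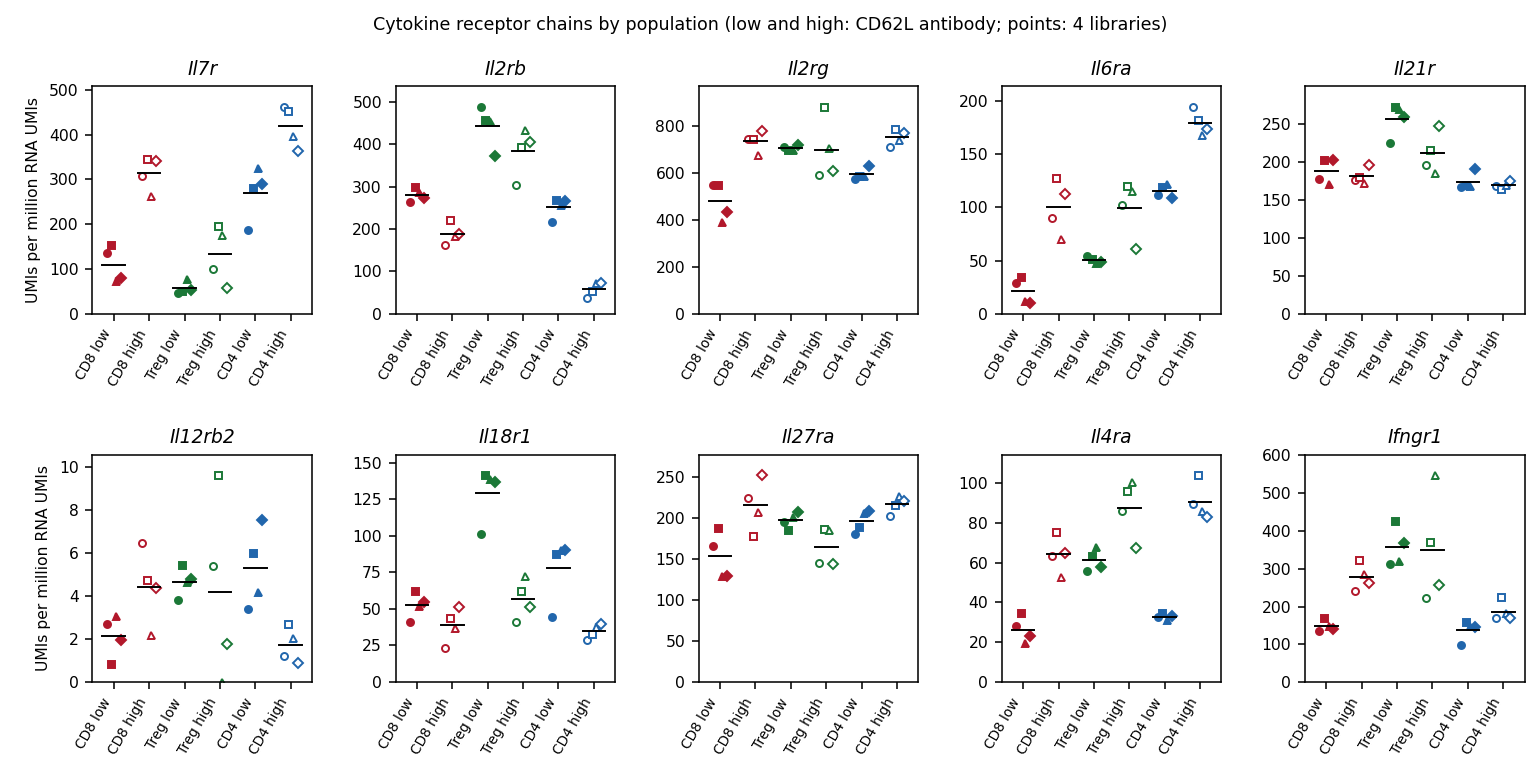
Level of each receptor chain in CPM (linear axis from 0, 1 panel per gene) in CD62L-low and CD62L-high cells of the CD8, Treg and CD4 conventional lineages. Points are the 4 libraries and horizontal lines their mean. In each library Il7r and Il6ra lie lower in CD62L-low than in CD62L-high cells of the same lineage, and CD62L-high CD4 conventional cells have the lowest Il2rb points, from 35.9 to 73.3 CPM.

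In CD8 cells the receptor genes mostly fell in the CD62L-low group. Among the 10 genes, 2 were called higher and 7 lower in CD62L-low than in CD62L-high cells, with a median log2 fold change of -0.85 (median of all genes tested 0.01). Of all 10630 genes tested, 24.1% were called higher and 19.1% lower. Calls are at an adjusted p under 0.05 (edgeR quasi-likelihood test, Benjamini-Hochberg over all genes). Il6ra fell by the most, with a log2 fold change of -2.37 ± 0.26 (SE, adjusted p = 2.08e-06). Il7r fell with a log2 fold change of -1.65 ± 0.26 (adjusted p = 0.000103). Il2rb rose with one of 0.50 ± 0.13 (adjusted p = 0.00412).

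Cycling cells were more frequent in the CD62L-low group. Cells with at least 2 UMIs of the cycling genes were 15.5 to 39.1% of CD62L-low CD8 cells and 1.82 to 7.62% of CD62L-high CD8 cells. Without them the log2 fold changes were -0.80 for Il7r and -1.44 for Il6ra, and both stayed called (adjusted p = 0.00153 and 9.57e-08). With 1 cell per clonotype they were -0.85 and -1.39, still called, while Il2rb gave 0.31 and was no longer called (adjusted p = 0.141). Gamma delta T cell transcripts also moved with the group, at a sum of 59.8 to 93.3 CPM over 4 markers (Trdc, Tcrg-C1, Tcrg-C4 and Trdv4) in CD62L-low and 3.15 to 15.3 CPM in CD62L-high CD8 cells, where Tcrg-C1 and Trdv4 were at 0. The 4 endocrine markers (Ins1, Ins2, Gcg and Sst), none at 0, were summed too. Replicates 1 to 4 gave 2.69, 16.0, 584 and 9.66 CPM in CD62L-low and 6.07, 6.30, 8.24 and 2.92 CPM in CD62L-high CD8 cells. The highest value came from replicate 3 alone, and in replicate 1 the CD62L-low sum was the lower one. The part of these transcripts in the result was not tested.

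Il4ra, Ifngr1, Il2rg and Il27ra also fell in CD62L-low CD8 cells. Il4ra (chr7:125552271-125579474, plus strand), the chain shared by the IL-4 and IL-13 receptors, gave 28.0, 34.8, 19.7 and 23.1 CPM in CD62L-low and 63.4, 75.6, 52.8 and 65.0 CPM in CD62L-high cells. These groups did not overlap, and Il4ra fell with a log2 fold change of -1.39 ± 0.12 (adjusted p = 7.56e-10). Ifngr1 (chr10:19591949-19610229, plus strand) gave 136, 170.3, 149 and 141 CPM in CD62L-low and 242, 323, 286 and 261 CPM in CD62L-high cells, again without overlap (log2 fold change -0.99 ± 0.14, adjusted p = 1.34e-05). Il2rg (chrX:101264385-101268255, minus strand) gave 552, 551, 390.5 and 434 CPM in CD62L-low and 746, 749, 678 and 782 CPM in CD62L-high cells (-0.72 ± 0.08, adjusted p = 1.73e-07). Il27ra (chr8:84030286-84042600), the IL-27 binding chain, gave 166, 188, 129 and 130.0 CPM in CD62L-low and 224, 178, 208 and 253 CPM in CD62L-high cells (-0.61 ± 0.11, adjusted p = 4.21e-05). Il2rg did not overlap between the groups and Il27ra overlapped. Per 100 cells, Il2rg averaged 346 UMIs in CD62L-low and 382 UMIs in CD62L-high cells, and the mean cell held 6843 to 7876 UMIs when CD62L-low and 4492 to 5769 UMIs when CD62L-high. Scaled by cell number in place of UMIs, which moved the median of all genes to 0.59, the log2 fold change was -0.15 for Il2rg and -0.03 for Il27ra, neither called. Both thus lay under that median. Without cycling cells they were -0.31 and -0.24, both called.

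Il18r1 and Il12rb2 were the least secure calls in CD8 cells. Il18r1 (chr1:40465552-40500854, plus strand), the IL-18 binding chain, gave 40.8, 62.6, 51.7 and 54.8 CPM in CD62L-low and 23.5, 44.1, 36.8 and 51.1 CPM in CD62L-high cells, groups that overlapped, though each library was higher in its CD62L-low cells (log2 fold change 0.38 ± 0.13, adjusted p = 0.0212). The Il18r1 call was lost without replicate 1 (0.27, adjusted p = 0.129), without replicate 2 (adjusted p = 0.0638) and without replicate 3 (adjusted p = 0.0949). Il12rb2 (chr6:67285986-67376293, minus strand) had 8, 3, 16 and 10 UMIs in all in CD62L-low and 17, 3, 4 and 6 UMIs in CD62L-high cells, near the limit of detection (-1.16 ± 0.47, adjusted p = 0.0436). That call was lost without replicates 1, 2 or 4 in turn (adjusted p = 0.325, 0.14 and 0.117), and the value was -1.75 without replicate 3. Il21r (chr7:125603252-125634397, plus strand), the IL-21 binding chain, did not pass the test (-0.04, adjusted p = 0.696), with 170.4 to 203 CPM in CD62L-low and 171 to 196 CPM in CD62L-high cells. Il21r was called higher when scaled by cell number (0.53, just under the median of all genes). In replicates 1 and 2 alone, 9 of the 9 called genes kept their call. Counting 1 cell per clonotype, Il18r1 (0.28, adjusted p = 0.189) and Il12rb2 (-0.63, adjusted p = 0.423) lost their calls, and Il12rb2 did so without cycling cells (-0.95, adjusted p = 0.184).

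CD4 conventional cells shared the falls in Il7r, Il6ra and Il4ra, and had the largest rise of Il2rb. 3 genes were called higher and 6 lower in CD62L-low than in CD62L-high cells, with a median log2 fold change of -0.37 (all genes 2.8e-05), where 21.7% of all genes tested were called higher and 18.6% lower. Il2rb rose with a log2 fold change of 1.98 ± 0.13 (adjusted p = 2.26e-10). Il6ra fell with one of -0.77 ± 0.19 (adjusted p = 0.0039). Il7r fell with one of -0.76 ± 0.23 (adjusted p = 0.0169), a call lost without replicate 1 (-0.56, adjusted p = 0.147) and without replicate 2 (-0.74, adjusted p = 0.0799). With replicates 1 and 2 alone Il7r was -1.15 (adjusted p = 7.22e-06), with replicates 3 and 4 alone -0.44 (adjusted p = 0.318) and with 1 cell per clonotype -0.36 (adjusted p = 0.136). Cycling cells made up 7.64 to 10.9% of CD62L-low and 0.228 to 4.37% of CD62L-high CD4 conventional cells, and without them Il7r was -0.44 (adjusted p = 0.0165).

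The chains for IL-12, IL-18 and IL-4 followed in the same cells. Il18r1 gave 44.4, 87.5, 90.0 and 90.1 CPM in CD62L-low and 28.9, 32.6, 37.6 and 39.8 CPM in CD62L-high cells (log2 fold change 0.98 ± 0.11, adjusted p = 1.68e-08). Replicate 1 was the lowest of the CD62L-low libraries but still above every CD62L-high one. Il4ra gave 32.6, 34.7, 31.1 and 33.2 CPM in CD62L-low and 89.6, 104, 86.1 and 82.9 CPM in CD62L-high cells, the groups far apart (-1.59 ± 0.10, adjusted p = 1.87e-13). Il12rb2 held 20, 40, 26 and 56 UMIs in CD62L-low and 7, 5, 9 and 3 UMIs in CD62L-high cells and was called higher (1.57 ± 0.40, adjusted p = 0.00201), a call lost without replicate 4 (1.16, adjusted p = 0.0622). Ifngr1 fell with -0.57 ± 0.13 (adjusted p = 0.00189, 98.5 to 159.5 against 169 to 224 CPM) and Il2rg with -0.46 ± 0.08 (adjusted p = 4.16e-05, 577 to 632 against 710.3 to 788 CPM). Il27ra fell with -0.27 ± 0.10 (adjusted p = 0.0282), a call lost without replicate 1 (adjusted p = 0.104) and without replicate 3 (adjusted p = 0.0625). Il27ra also lost it without cycling cells (-0.10, adjusted p = 0.241) and with 1 cell per clonotype (-0.19, adjusted p = 0.0887). With 1 cell per clonotype Ifngr1 was -0.23 and no longer called (adjusted p = 0.178), and scaled by cell number (median of all genes 0.47) Il2rg, Il6ra, Il7r and Ifngr1 were -0.01, -0.30, -0.30 and -0.11 and not called. Il21r did not pass the test, at -0.10 (adjusted p = 0.261), and was called higher when scaled by cell number (0.37).

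Treg held 34 to 75 CD62L-high cells per library, and few receptor genes passed the test there. These cells held a mean of 7963, 6125, 5532 and 7506 UMIs in replicates 1 to 4. Their medians were 3882, 3596, 3854 and 3300 UMIs, so deep cells weigh more in these sums. CD62L-low Treg held 6609 to 8615 UMIs by mean and 3741.5 to 5265 by median. Il18r1 was called higher and Il4ra lower in CD62L-low than in CD62L-high Treg, with a median log2 fold change of 0.13 over the 10 genes (all genes 0.01), where 2.53% of all genes were called higher and 2.55% lower. Il18r1 gave 101, 141, 138 and 137 CPM in CD62L-low and 41.3, 62.4, 72.8 and 51.5 CPM in CD62L-high Treg, with no overlap (1.18 ± 0.16, adjusted p = 3.74e-05). Il4ra gave 55.9, 63.2, 67.8 and 57.9 CPM in CD62L-low and 86.1, 96.0, 100.4 and 67.5 CPM in CD62L-high Treg (-0.54 ± 0.15, adjusted p = 0.032), with the highest CD62L-low library above the lowest CD62L-high one. The Il4ra call was lost without each replicate in turn (-0.51, -0.49, -0.49 and -0.63, adjusted p = 0.192, 0.127, 0.0947 and 0.0567). Il7r (-1.14 ± 0.40, adjusted p = 0.121) and Il6ra (-0.97 ± 0.33, adjusted p = 0.108) did not pass the test, with lower levels in CD62L-low Treg in 4 of 4 libraries. DESeq2 gave adjusted p = 0.00213 for Il7r and 0.00656 for Il6ra. Il2rb was 0.20 ± 0.14 (adjusted p = 0.51).

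The CD62L difference itself differed between lineages for some chains. Of the 10 genes, 4 were called, all lower, when the difference in CD8 cells was set against that in CD4 conventional cells, where 1.43% of all genes were called higher and 2.7% lower. The Il2rb rise was smaller in CD8 than in CD4 conventional cells (difference of log2 fold changes -1.48 ± 0.19, adjusted p = 5.04e-05) and smaller in Treg than in CD4 conventional cells (-1.78 ± 0.19, adjusted p = 3.01e-05). The Il6ra fall was larger in CD8 cells (-1.61 ± 0.32, adjusted p = 0.00812). That call was lost without replicate 3 (-1.49, adjusted p = 0.0604) and without replicate 4 (-1.29, adjusted p = 0.0661), and the difference was -0.95 with replicates 1 and 2 alone (adjusted p = 0.00617) and -0.86 without cycling cells (adjusted p = 0.00562). It was not called with 1 cell per clonotype (-0.79, adjusted p = 0.136). Il7r gave no called difference between CD8 and CD4 conventional cells (-0.89 ± 0.35, adjusted p = 0.182).

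Between Treg and CD4 conventional cells, 2 genes were called higher and 1 lower in the same test, against 0.988% and 2.09% of all genes. The fall in Il4ra was smaller in Treg (1.05 ± 0.17, adjusted p = 0.000828). Il2rg was called too (0.50 ± 0.12, adjusted p = 0.0234), and lost the call without replicate 1 (adjusted p = 0.166) and without replicate 4 (adjusted p = 0.166). Il12rb2 and Il18r1 were called between CD8 and CD4 conventional cells (-2.73 ± 0.61 and -0.60 ± 0.17, adjusted p = 0.00781 and 0.0419). Il12rb2 lost its call without replicates 1 or 4 (adjusted p = 0.137 and 0.151), and Il18r1 without replicates 2, 3 or 4 (adjusted p = 0.129, 0.166 and 0.433). With 1 cell per clonotype the calls were lost for Il2rg between Treg and CD4 conventional cells (0.37, adjusted p = 0.0951) and for Il12rb2 between CD8 and CD4 conventional cells (-2.40, adjusted p = 0.0532), and without cycling cells that for Il18r1 between CD8 and CD4 conventional cells (-0.50, adjusted p = 0.0759).

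**Figure D2:**
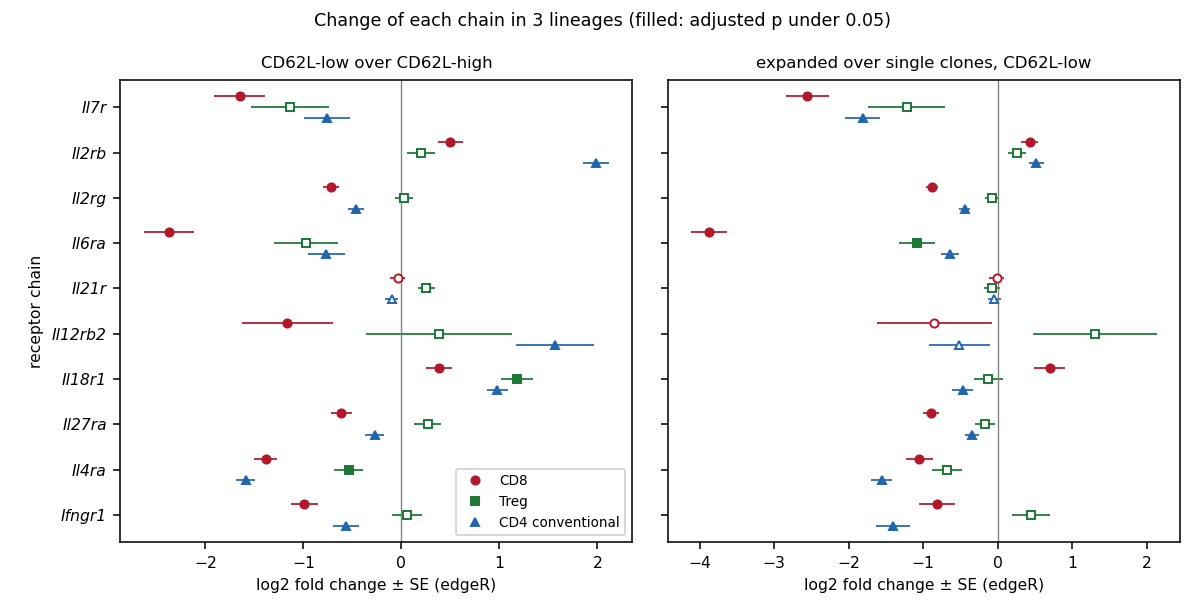
Log2 fold change with its SE for each receptor chain in CD8, Treg and CD4 conventional cells, CD62L-low over CD62L-high (one panel) and expanded over single CD62L-low cells (the other). Filled symbols were called at an adjusted p under 0.05. Il6ra in CD8 cells lies farthest to the left in both panels, at -2.37 and -3.87, and Il2rb in CD4 conventional cells farthest to the right among the CD62L comparisons, at 1.98.

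Set against CD4 conventional cells of the same CD62L class, CD8 cells had less Il6ra at both levels of CD62L. Among CD62L-low cells, 7 of the 10 genes were called, all lower in CD8 than in CD4 conventional cells, where 22.8% of all genes were called higher and 21.0% lower. Il6ra was -2.50 ± 0.23 (adjusted p = 2.51e-07) and Il7r -1.31 ± 0.25 (adjusted p = 0.000526), with Il7r at -0.65 in replicates 1 and 2 alone and -1.98 in replicates 3 and 4 alone, called in both. Il2rb did not pass the test there (0.20 ± 0.12, adjusted p = 0.197). Il18r1 was lower, at -0.52 ± 0.10 (adjusted p = 0.000131). The calls for Il2rg (-0.28), Il27ra (-0.33) and Il4ra (-0.31) were lost without replicate 3 (adjusted p = 0.0914, 0.112 and 0.136) and without replicate 4 (adjusted p = 0.109, 0.118 and 0.147), and that for Il12rb2 (-1.21) without replicates 2 or 4 (adjusted p = 0.0641 and 0.116). Scaled by cell number (median of all genes 0.52), Il2rg, Il27ra, Il4ra and Il18r1 changed sign, to 0.24, 0.19, 0.21 and 0.01, none of them called. Cycling cells were 15.5 to 39.1% of CD62L-low CD8 and 7.64 to 10.9% of CD62L-low CD4 conventional cells, and 8 of 9 cycling genes were called higher in the CD8 cells. Without cycling cells 3 of the 7 calls were kept, Il2rg being 0.03, Il12rb2 -0.86, Il27ra -0.05 and Il4ra -0.03 (adjusted p = 0.762, 0.125, 0.67 and 0.894). The same 4 genes lost their calls with 1 cell per clonotype (-0.05, -0.87, -0.07 and -0.19, adjusted p = 0.73, 0.139, 0.606 and 0.223). The 4 gamma delta T cell markers summed to 59.8 to 93.3 CPM in CD62L-low CD8 and 5.80 to 9.17 CPM in CD62L-low CD4 conventional cells, none of them at 0, and their part in the result was not tested.

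Among CD62L-high cells, 3 genes were called higher and 2 lower in CD8 than in CD4 conventional cells, against 6.92% and 6.5% of all genes. Il2rb was the most different, at 1.68 ± 0.14 (adjusted p = 2.38e-08). Ifngr1 was higher (0.57 ± 0.14, adjusted p = 0.00751) and Il4ra lower (-0.51 ± 0.11, adjusted p = 0.00108) in the CD8 cells. Il6ra was lower (-0.90 ± 0.22, adjusted p = 0.00952), a call lost without replicate 1 (adjusted p = 0.106) and without replicate 3 (adjusted p = 0.0732). The Ifngr1 call was lost without replicate 2 (adjusted p = 0.074), and Il12rb2 (1.52, adjusted p = 0.0381) was lost without replicates 1 or 4 (adjusted p = 0.457 and 0.147). Il7r did not pass the test (-0.41 ± 0.24, adjusted p = 0.32).

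Treg differed from CD4 conventional cells by low Il7r and high Il2rb at both levels of CD62L. Among CD62L-low cells 5 genes were called higher and 2 lower in Treg, against 13.0% and 12.4% of all genes. Il7r was lower (-2.32 ± 0.29, adjusted p = 2.88e-05), as was Il6ra (-1.26 ± 0.24, adjusted p = 0.000936). Ifngr1 had 314, 427, 321 and 369 CPM in CD62L-low Treg and 98.5, 159.5, 149 and 146 CPM in CD62L-low CD4 conventional cells, with no overlap (1.34 ± 0.14, adjusted p = 5.54e-07). Il4ra (0.84 ± 0.11, adjusted p = 2.1e-06), Il2rb (0.79 ± 0.12, adjusted p = 7.37e-05), Il18r1 (0.71 ± 0.10, adjusted p = 6.14e-06) and Il21r (0.52 ± 0.07, adjusted p = 1.78e-06) were higher. All 7 kept their call with each replicate left out in turn. They also kept it without cycling cells, which made up 17.6 to 24.7% of CD62L-low Treg and 7.64 to 10.9% of CD62L-low CD4 conventional cells.

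In CD62L-high cells 3 genes were called higher and 4 lower in Treg than in CD4 conventional cells, against 13.7% and 11.0% of all genes. Il2rb was 2.57 ± 0.15 (adjusted p = 1.94e-10) and Il7r -1.94 ± 0.32 (adjusted p = 0.000392). Il6ra was -1.06 ± 0.27 (adjusted p = 0.00951), a call lost without replicate 1 (adjusted p = 0.0713) and without cycling cells (-0.46, adjusted p = 0.117). Ifngr1 was 0.72 ± 0.15 (adjusted p = 0.00188) and moved to 0.40 without replicate 3, still called, while Il27ra was -0.57 ± 0.13 (adjusted p = 0.00159). Il2rg (-0.29, adjusted p = 0.0203) lost its call without replicates 1 or 4 (adjusted p = 0.111 and 0.214), and Il18r1 (0.51, adjusted p = 0.0376) without replicates 2 or 3 (adjusted p = 0.118 and 0.204). When scaled by cell number, with the median of all genes at 0.97, Il27ra was 0.40 and Il2rg 0.67, both called and both under that median. Cycling cells made up 14.3% ± 3.84 of CD62L-high Treg and 2.33% ± 1.74 of CD62L-high CD4 conventional cells (mean ± SD, n = 4 each). A Treg with no Foxp3 UMI read is counted as conventional.

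The CD62L antibody count was also read in 4 steps of 0 to 3, 4 to 9, 10 to 24 and 25 or more counts. In CD8 cells Il6ra averaged 21.5, 55.1, 93.8 and 102 CPM over these steps, in order, and Il2rb averaged 281, 230.0, 200.2 and 182 CPM. In CD4 conventional cells Il7r averaged 270.2, 318, 360.0 and 451 CPM, Il6ra 116, 139, 175 and 181 CPM and Il2rb 251, 175, 76.6 and 52.0 CPM. Il7r in CD8 cells averaged 109.9, 199, 357 and 292 CPM, so its mean was highest in the third step. Treg had Il2rb at 443, 419, 408 and 381 CPM, the flattest of the 3 lineages, and Il7r at 57.2, 70.4, 72.5 and 128 CPM, the third step from 3 libraries. These are descriptions of the variable that defines the groups above.

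**Figure D3:**
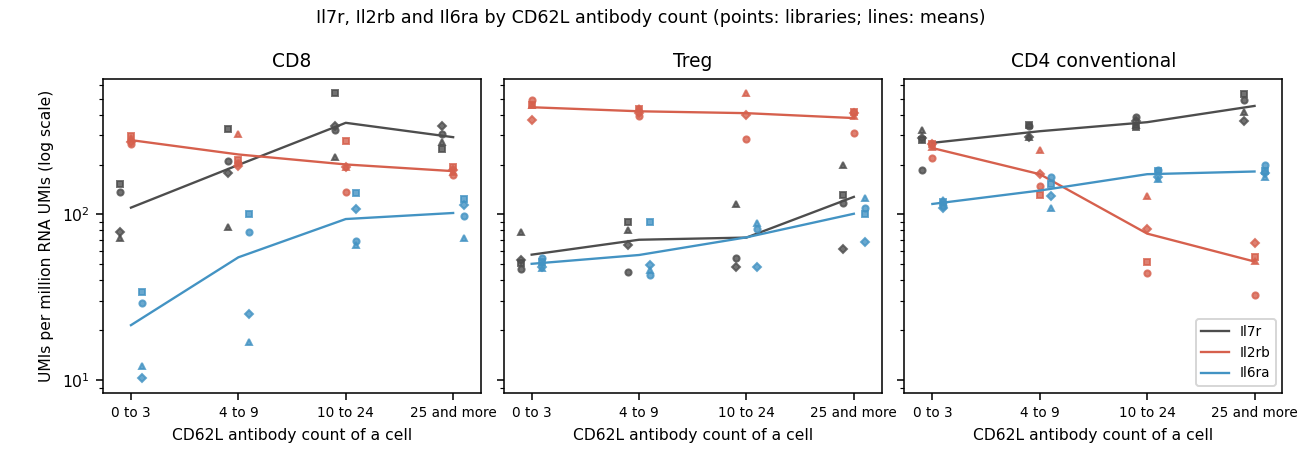
Il7r, Il2rb and Il6ra in CPM (vertical axis) by antibody CD62L count in 4 steps (horizontal axis) for CD8, Treg and CD4 conventional cells. Points are libraries with at least 20 cells in the step and lines join their means. Il2rb declines most steeply in CD4 conventional cells, where its means are 251, 175, 76.6 and 52.0 CPM.

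Il6ra was lower in expanded than in single cells. In CD62L-low CD8 cells, replicates 1 to 4 held 5.45, 7.70, 3.14 and 1.68 CPM in expanded cells and 61.9, 66.4, 41.0 and 49.4 CPM in single cells. In UMIs these were 9, 14, 12 and 6 in expanded and 59, 70, 22 and 26 in single cells, and in UMIs per 100 cells a mean of 5.01 against 32.6. The groups lay far apart. The log2 fold change was -3.87 ± 0.24 (adjusted p = 2.01e-13). Il6ra UMIs were few in expanded CD8 cells, so the size of this fold is uncertain. After thinning, their share with an Il6ra UMI lay within or under the range of B cell barcodes. CD4 conventional cells held 93.2, 96.1, 86.7 and 89.6 CPM in expanded and 129.9, 137, 144 and 128 CPM in single cells, a smaller difference without overlap (-0.64 ± 0.12, adjusted p = 0.000146). The difference between these 2 lineages was called (-3.23 ± 0.27, adjusted p = 6.02e-09). It stayed called without cycling cells (-2.02, adjusted p = 3.23e-07) and was not called with 1 cell per clonotype (-1.59, adjusted p = 0.0607).

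Il7r fell with expansion in both lineages. Expanded CD8 cells held 48.4, 70.9, 31.7 and 29.4 CPM and single CD8 cells 243, 216, 235 and 254 CPM (-2.55 ± 0.29, adjusted p = 6.18e-06). In CD4 conventional cells the levels were 68.5, 99.4, 135 and 162 CPM in expanded and 309.7, 452, 439 and 349 CPM in single cells (-1.81 ± 0.24, adjusted p = 5.71e-05). Neither lineage overlapped. Cycling cells were 29.2 to 50.3% of expanded and 5.44 to 10.4% of single CD62L-low CD8 cells. Without them Il7r in CD8 cells was -1.26 and Il6ra -2.53, and with 1 cell per clonotype -1.28 and -2.16, all 4 still called. Gamma delta T cell markers summed to 63.6 to 141 CPM in expanded and 7.46 to 51.3 CPM in single CD8 cells, and their part in the result was not tested.

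Il2rb rose with expansion in both lineages. Expanded CD8 cells held 323, 305, 312 and 281 CPM and single ones 189, 269.6, 226 and 177 CPM, with every library higher in its expanded cells (0.43 ± 0.11, adjusted p = 0.00279). Expanded CD4 conventional cells held 260.0, 343, 276 and 322 CPM and single ones 171, 189, 227 and 207 CPM, without overlap (0.52 ± 0.10, adjusted p = 0.000345). With 1 cell per clonotype the value in CD8 cells was 0.22 and not called (adjusted p = 0.384), and in replicates 1 and 2 alone 0.35 (adjusted p = 0.104). The difference between the lineages did not pass the test (-0.09 ± 0.15, adjusted p = 0.795).

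In all, 2 genes were called higher and 6 lower in expanded than in single CD62L-low CD8 cells, with a median log2 fold change of -0.87 (all genes 0.02) and 19.8% and 17.1% of all 10200 genes tested called. In CD4 conventional cells 1 was called higher and 7 lower, with a median of -0.49 (all genes -0.01) against 10.9% and 11.4% of all genes. Il4ra fell in CD4 conventional cells (14.9, 17.8, 18.4 and 18.1 CPM in expanded and 55.4, 47.7, 44.5 and 46.0 CPM in single cells, -1.56 ± 0.14, adjusted p = 2.06e-09) and in CD8 cells (-1.05 ± 0.18, adjusted p = 2.84e-05). Ifngr1 fell in CD4 conventional cells (-1.41 ± 0.23, adjusted p = 0.000334) and in CD8 cells (-0.81 ± 0.24, adjusted p = 0.0158), where the call was lost without replicate 2 (adjusted p = 0.0813) and without replicate 3 (adjusted p = 0.0777). Il2rg and Il27ra fell in CD8 cells (-0.88 ± 0.08 and -0.90 ± 0.11, adjusted p = 3.59e-10 and 8.91e-08) and in CD4 conventional cells (-0.44 ± 0.08 and -0.34 ± 0.10, adjusted p = 6.42e-05 and 0.00981). Scaled by cell number, with the median of all genes at 1.04 in CD8 and 0.56 in CD4 conventional cells, Il2rg and Il27ra changed sign in both lineages, to 0.13 and 0.12 in CD8 and 0.13 and 0.23 in CD4 conventional cells, none called, and Ifngr1 in CD8 cells became 0.23, not called. Il21r, which was not called, became 1.02 in CD8 and 0.52 in CD4 conventional cells, both called. The Il27ra call in CD4 conventional cells was lost without replicate 1 (adjusted p = 0.0746) and without replicate 3 (adjusted p = 0.0691). Cycling cells were 12.5 to 19.7% of expanded and 5.07 to 7.69% of single CD62L-low CD4 conventional cells. Without them Il27ra (-0.17, adjusted p = 0.213) and Il18r1 (-0.30, adjusted p = 0.175) lost their calls there and the other 6 genes kept them. With 1 cell per clonotype Il2rg (-0.27, adjusted p = 0.118) and Il18r1 (-0.33, adjusted p = 0.28) lost theirs in CD4 conventional cells, as Il4ra did in CD8 cells (-0.85, adjusted p = 0.0522).

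Il18r1 moved in opposite directions. Expanded CD8 cells held 53.3, 73.1, 52.4 and 54.9 CPM and single CD8 cells 14.7, 45.6, 35.5 and 43.7 CPM (0.70 ± 0.21, adjusted p = 0.01), while expanded CD4 conventional cells held 29.7, 78.3, 66.8 and 76.5 CPM and single ones 51.5, 91.2, 97.4 and 84.9 CPM (-0.47 ± 0.14, adjusted p = 0.02). Every CD8 library was higher and every CD4 conventional library lower in its expanded cells, with overlap between the CD4 conventional groups. The difference between the lineages was 1.17 ± 0.25 (adjusted p = 0.00644). The CD8 call was lost without replicate 1 (0.43, adjusted p = 0.0624), the CD4 conventional call without replicates 3 or 4 (adjusted p = 0.146 and 0.0503), and the difference without replicate 3 (adjusted p = 0.0512). The CD4 conventional value scaled by cell number was 0.09, not called. Of the 10 genes, 1 was called higher and 3 lower in the difference of the expansion effects, against 2.71% and 3.18% of all genes. The remaining calls were Il2rg (-0.44, adjusted p = 0.0144) and Il27ra (-0.56, adjusted p = 0.0177), both lost without replicate 1 (adjusted p = 0.0767 and 0.0803) and without replicate 3 (adjusted p = 0.0621 and 0.12). The difference with 1 cell per clonotype was no longer called for Il18r1 (1.12, adjusted p = 0.162), Il2rg (-0.31, adjusted p = 0.568) or Il27ra (-0.48, adjusted p = 0.403). Without cycling cells it was not called for Il2rg (adjusted p = 0.65) or Il27ra (adjusted p = 0.396). Without the replicate block the Il18r1 calls were lost in CD8 cells, in CD4 conventional cells and in the difference (adjusted p = 0.165, 0.294 and 0.189).

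Expanded Treg could be summed in 3 libraries, since replicate 3 held only 18 such cells and was left out of the fit. Il6ra was the only receptor gene called, lower in expanded than in single CD62L-low Treg (29.3, 29.4 and 40.9 CPM in replicates 1, 2 and 4 against 82.4, 82.5, 53.3 and 46.1 CPM in replicates 1 to 4), where 0.804% of all genes were called higher and 0.941% lower. Its log2 fold change was -1.09 ± 0.24 (adjusted p = 0.0137), a call lost without replicate 1 (-0.95, adjusted p = 0.27) and without replicate 2 (-0.82, adjusted p = 0.272). Nor was it called with 1 cell per clonotype (-0.44, adjusted p = 0.621). Il7r did not pass the test, at 29.3, 30.4 and 15.7 CPM in expanded and 62.3, 79.7, 64.7 and 52.4 CPM in single Treg (-1.22 ± 0.52, adjusted p = 0.289), and DESeq2 gave an adjusted p of 0.0154. Il2rb held 545, 463 and 425 CPM in expanded and 402, 443, 427 and 363 CPM in single Treg (0.26 ± 0.12, adjusted p = 0.308).

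Over clones of 1, 2, 3 to 4 and 5 or more cells, the mean level of Il7r in CD62L-low CD8 cells was 237, 112, 106 and 33.1 CPM and that of Il6ra 54.7, 18.8, 10.5 and 2.62 CPM. The third of these steps comes from 3 libraries. In CD62L-low CD4 conventional cells Il7r averaged 388, 263, 160.3 and 62.8 CPM over the same steps, while Il6ra averaged 135, 93.4, 96.2 and 89.3 CPM. In CD8 cells the Il6ra values of clones of 2 cells upward rest on few UMIs, and no trend over these steps is read from them. Il2rb averaged 215, 294, 269 and 313 CPM in CD8 and 198, 265, 298 and 312 CPM in CD4 conventional cells.

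**Figure D4:**
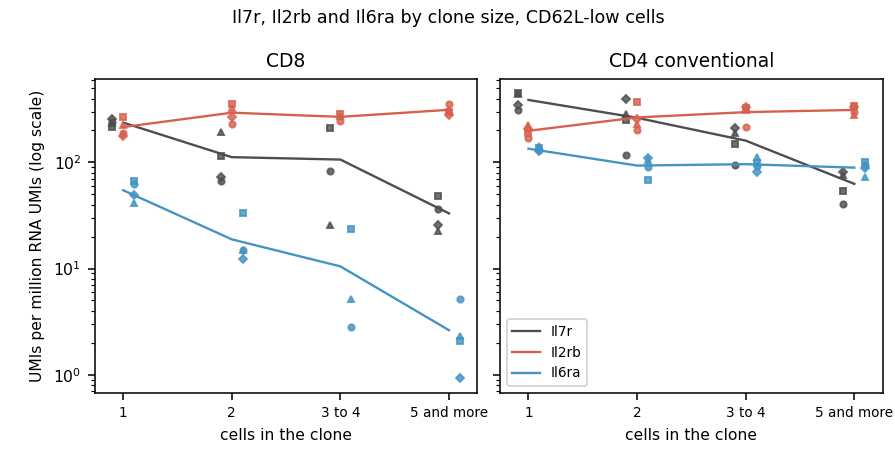
Il7r, Il2rb and Il6ra in CPM (vertical axis) by clone size in 4 steps (horizontal axis) for CD62L-low CD8 and CD4 conventional cells. Points are libraries with at least 20 cells in the step and lines join their means. In CD8 cells the Il6ra means are 54.7, 18.8, 10.5 and 2.62 CPM from single cells to clones of 5 or more. The means of expanded clones rest on few UMIs, and no trend is read from them.

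Per cell, detection was compared after each cell was thinned to 1500 UMIs, with shallower cells left out (30.3% and 18.8% of CD62L-low CD8 cells in replicates 3 and 4, at most 12.5% elsewhere). An Il7r UMI was then found in 13.0 to 22.7% of CD62L-low and 26.5 to 39.1% of CD62L-high CD8 cells (unthinned 21.8 to 42.9% and 49.8 to 66.4%). Barcodes of B cells, which as mature cells should lack both genes, had Il7r in 0 to 0.424% after thinning and Il2rb in 0 of 1079, which allows a share of up to 0.278% by counting error alone (unthinned 0.424 to 1.17%), at a median depth of 3243 to 4434 UMIs against 4732 to 5589 in CD62L-low CD8 cells. Il2rb was found in 29.5 to 34.2% of CD62L-low and 17.05 to 22.7% of CD62L-high CD8 cells, and in 22.4 to 29.2% and 2.47 to 7.24% of CD62L-low and CD62L-high CD4 conventional cells. Il6ra was found in a mean of 1.38% ± 0.712 of expanded and 9.23% ± 0.760 of single CD62L-low CD8 cells (SD, n = 4 each, unthinned ranges 1.62 to 4.89% and 21.2 to 30.8%), beside 0.712 to 4.09% of B cell barcodes. The share in expanded CD8 cells, 0.647 to 2.26%, lay within the range of B cell barcodes or under it. Whether B cells lack Il6ra was not tested, so these barcodes set no floor for it. No background was measured for Il6ra, so how much of the low share in expanded CD8 cells is background is not known. Il12rb2 was found in 0.193 to 0.811% of CD62L-low CD8 cells, 0.665 to 1.26% of CD62L-low CD4 conventional cells and 0 to 0.256% of B cell barcodes.

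Fewer expanded than single cells held an Il7r UMI alone, and more held an Il2rb UMI alone. Among expanded CD62L-low CD8 cells thinned to 1500 UMIs, 5.07% ± 3.23 (SD, n = 4) had Il7r without Il2rb, 33.9% ± 2.44 Il2rb without Il7r and 3.36% ± 2.12 both, whereas single CD62L-low CD8 cells had 21.7%, 17.01% and 7.08%. CD62L-high CD8 cells had Il7r alone in 25.4% and Il2rb alone in 14.1%. Expanded CD62L-low CD4 conventional cells had Il7r alone in 12.5% and Il2rb alone in 28.9%, single ones in 30.7% and 13.4%, and CD62L-high ones in 37.3% and 3.92%. In expanded Treg, 55.6% ± 2.72 (SD, n = 3) had Il2rb alone and 1.53% ± 1.35 Il7r alone, against 35.2% and 9.52% of single CD62L-low Treg and 32.7% and 12.1% of CD62L-high Treg. Class sizes depend on how well each transcript is captured, so they are compared between populations and not between genes. The Il2rb class was larger and the Il7r class smaller in expanded than in single cells of CD8 and CD4 conventional cells in every library, and in Treg in all 3 libraries that could be compared. Within CD62L-low CD4 conventional cells the odds ratio of reading both was 0.650, 0.687, 0.756 and 0.823 in replicates 1 to 4, with 42, 96, 91 and 139 cells that held both. In CD62L-low CD8 cells it was 0.947, 0.752, 1.01 and 0.577, with 21, 30, 23 and 18 such cells, and in CD62L-low Treg 1.08, 0.323, 0.710 and 1.15, with 7, 5, 7 and 10. The ratios thus lay under 1 in every library of CD62L-low CD4 conventional cells and on both sides of 1 in CD62L-low cells of the other lineages. CD62L-high CD4 conventional cells were also under 1 in every library, at 0.473, 0.759, 0.646 and 0.943, with 9 to 23 cells that held both. In single CD62L-low CD4 conventional cells alone the ratios ran over 0.706 to 1.09. In these sparse counts such ratios are given as a description.

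**Figure D5:**
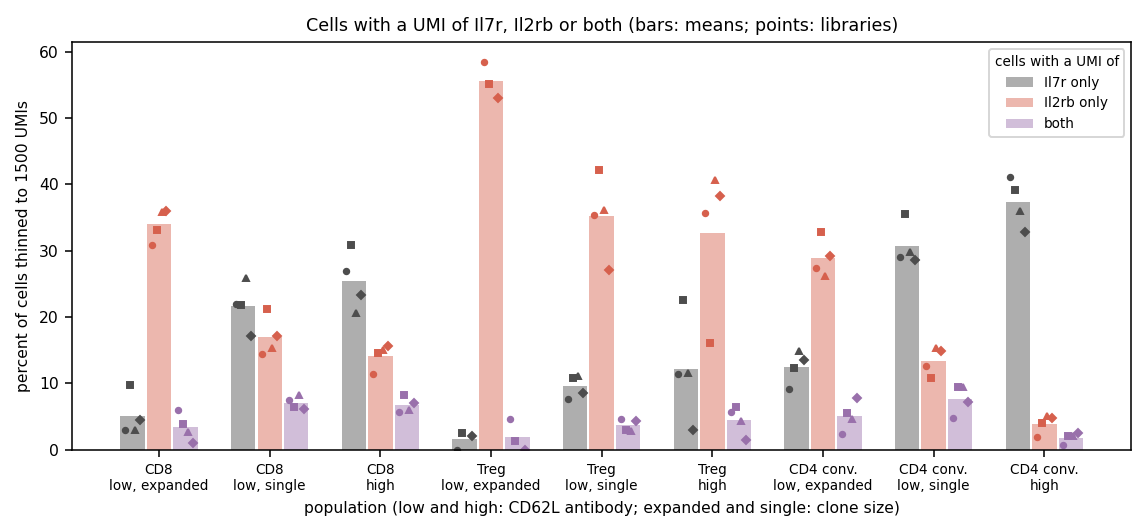
Percent of cells, thinned to 1500 UMIs, with Il7r alone, Il2rb alone or both (vertical axis, from 0) in expanded CD62L-low, single CD62L-low and CD62L-high cells of each lineage. Bars are means over libraries and points the libraries. The Il2rb class holds 33.9% of expanded and 17.01% of single CD62L-low CD8 cells, and the Il7r class 5.07% and 21.7%.

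In replicates 1 and 2 alone, 53 of the 74 calls over all comparisons were kept and 21 were lost. Between CD62L-low and CD62L-high CD4 conventional cells it was Il12rb2 (1.29, adjusted p = 0.0798). Between CD62L-low and CD62L-high Treg it was Il4ra (-0.64, adjusted p = 0.0878). Between CD62L-low CD8 and CD4 conventional cells these were Il2rg (-0.05, adjusted p = 0.766), Il12rb2 (-1.41, adjusted p = 0.0834), Il18r1 (-0.30, adjusted p = 0.159), Il27ra (-0.04, adjusted p = 0.863) and Il4ra (-0.07, adjusted p = 0.778). Between CD62L-high CD8 and CD4 conventional cells it was Il12rb2 (1.88, adjusted p = 0.0822). Between CD62L-high Treg and CD4 conventional cells these were Il2rg (-0.25, adjusted p = 0.132), Il18r1 (0.49, adjusted p = 0.292) and Ifngr1 (0.36, adjusted p = 0.0739). In the difference of CD62L effects between CD8 and CD4 conventional cells these were Il12rb2 (-3.29, adjusted p = 0.0549) and Il18r1 (-0.26, adjusted p = 0.888). In the difference of CD62L effects between Treg and CD4 conventional cells it was Il2rg (0.49, adjusted p = 0.075). Between expanded and single CD62L-low CD8 cells these were Il2rb (0.35, adjusted p = 0.104) and Ifngr1 (-0.83, adjusted p = 0.215). Between expanded and single CD62L-low CD4 conventional cells these were Il18r1 (-0.52, adjusted p = 0.152) and Il27ra (-0.31, adjusted p = 0.0791). In the difference of expansion effects these were Il2rg (-0.40, adjusted p = 0.168), Il18r1 (1.52, adjusted p = 0.0644) and Il27ra (-0.42, adjusted p = 0.255).

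The partner chains of these receptors were counted in the same way. Of 9 partner chains, 8 were tested, and 3 were called higher and 2 lower in CD62L-low than in CD62L-high CD8 cells, against 24.1% and 19.1% of all genes tested, with a median log2 fold change of 0.54. Il6st, the shared signal chain of the IL-6 and IL-27 receptors, averaged 69.3 against 145 CPM in CD62L-low and CD62L-high CD8 cells (-1.21 ± 0.22, adjusted p = 0.000299), and 39.6 against 139 CPM in expanded and single ones (-1.97 ± 0.23, adjusted p = 4.33e-06). Ifngr2, the second chain of the interferon gamma receptor, averaged 4.21 against 18.8 CPM in CD62L-low and CD62L-high CD8 cells (-2.29 ± 0.24, adjusted p = 2.14e-08) and 7.30 against 30.5 CPM in the same groups of CD4 conventional cells (-2.21 ± 0.17, adjusted p = 2.45e-11). Il18rap, the second IL-18 receptor chain, rose with Il18r1 in CD62L-low CD4 conventional cells (2.74 ± 0.29, adjusted p = 7.8e-08) and in CD62L-low CD8 cells (0.80 ± 0.26, adjusted p = 0.0179). Il12rb1, the partner of the Il12rb2 product, rose in CD62L-low CD4 conventional cells (1.57 ± 0.26, adjusted p = 1.99e-05), and Il15ra, which presents IL-15, rose there too (0.75 ± 0.20, adjusted p = 0.0031). In CD4 conventional cells 4 of the 8 were called higher and 1 lower, against 21.7% and 18.6% of all genes, and in Treg 1 higher and 1 lower, against 2.53% and 2.55% of all genes. None of the gene lists given here is read as set apart from all genes by its count.

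Other cytokine receptors, 12 of 18 of which were tested, had 3 higher and 3 lower in CD62L-low CD8 cells and 4 higher and 3 lower in CD62L-low CD4 conventional cells, with medians of -0.15 and 0.18. These counts lie near the shares of all genes, 24.1% and 19.1% in CD8 and 21.7% and 18.6% in CD4 conventional cells. Il10ra, the IL-10 binding chain, rose in CD62L-low CD8 cells (0.81 ± 0.14, adjusted p = 3.45e-05), and Tgfbr2, a chain of the TGF-beta receptor, fell in CD8 and in CD4 conventional cells (-0.84 ± 0.10 and -0.87 ± 0.09, adjusted p = 2.02e-07 and 1.41e-08). In CD62L-low Treg 1 of these genes rose and 2 fell, with Tgfbr2 at -0.70 ± 0.14 (adjusted p = 0.00206). Of all genes, 2.53% were called higher and 2.55% lower there. Between CD62L-low Treg and CD62L-low CD4 conventional cells, 6 of the 12 were called higher and 2 lower in Treg, against 13.0% and 12.4% of all genes. Treg also stood above CD4 conventional cells in Il1r2, the IL-1 decoy receptor, with 89.1 against 13.0 CPM among CD62L-low cells (2.78 ± 0.27, adjusted p = 2.04e-06), and in Il1rl1, the IL-33 receptor (2.47 ± 0.37, adjusted p = 8.86e-06).

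Downstream of the receptors, all 11 genes of the JAK and STAT list were tested. 1 was higher and 4 were lower in CD62L-low CD8 cells, and 3 were higher and 5 lower in CD62L-low CD4 conventional cells. Of all genes, 24.1% were higher and 19.1% lower in the CD8 and 21.7% and 18.6% in the CD4 conventional comparison, which are also the shares beside the STAT targets. Stat4, which carries the IL-12 signal, rose in CD4 conventional cells (0.93 ± 0.11, adjusted p = 7.8e-08). Among 8 STAT targets and feedback genes, 3 rose and 4 fell in CD62L-low CD8 cells, and 2 rose and 2 fell in CD62L-low CD4 conventional cells. Bcl2, a survival gene that IL-7 induces, fell in CD8 cells (-1.20 ± 0.15, adjusted p = 2.61e-06), in CD4 conventional cells (-0.82 ± 0.14, adjusted p = 5.65e-05) and in Treg (-1.75 ± 0.22, adjusted p = 6.21e-05). Cish, a feedback inhibitor that STAT5 induces, rose in CD62L-low CD8 cells (1.17 ± 0.37, adjusted p = 0.0168), and Socs2 in CD62L-low CD4 conventional cells (2.83 ± 0.37, adjusted p = 5.03e-06).

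Of 10 transcription factors known to act on Il7r or Il2rb, 3 rose and 4 fell in CD62L-low CD8 cells, 2 rose and 4 fell in CD62L-low CD4 conventional cells, and 1 rose and 2 fell in CD62L-low Treg. The shares of all genes called higher and lower were 24.1% and 19.1% in CD8, 21.7% and 18.6% in CD4 conventional cells and 2.53% and 2.55% in Treg. Klf2, a quiescence factor that also drives the CD62L gene, fell in CD8 cells (-1.42 ± 0.19, adjusted p = 2.86e-05) and in CD4 conventional cells (-1.09 ± 0.19, adjusted p = 0.000207). Bach2, which holds back effector differentiation, fell in the same cells (-1.52 ± 0.20 in CD8 and -1.72 ± 0.17 in CD4 conventional cells, adjusted p = 1.12e-05 and 2.58e-07). Tbx21 and Eomes, T-box factors linked to Il2rb, rose in CD62L-low CD8 cells (1.08 ± 0.26 and 1.35 ± 0.30, adjusted p = 0.00284 and 0.00171), and Tbx21 rose in CD62L-low CD4 conventional cells (2.71 ± 0.27, adjusted p = 1.95e-07) and Treg (2.19 ± 0.55, adjusted p = 0.0251). Of 14 cytokine ligands, 4 had enough UMIs to be tested. Ifng averaged 108 against 25.6 CPM in CD62L-low and CD62L-high CD8 cells and rose in the CD62L-low ones (1.83 ± 0.24, adjusted p = 8.84e-06) and in CD62L-low CD4 conventional cells (3.29 ± 0.24, adjusted p = 3.66e-09). Il21 averaged 115 against 6.83 CPM in CD62L-low and CD62L-high CD4 conventional cells (3.96 ± 0.31, adjusted p = 3.03e-08). Il2 was lower in CD62L-low Treg than in CD62L-low CD4 conventional cells, at 0.315 against 10.7 CPM (few UMIs, so no fold is given, adjusted p = 8.39e-07).

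Across the 24 sums of the 6 populations, after each library's mean was subtracted, Il7r correlated with Il2rb at r = -0.77 and with Il6ra at r = 0.72, and Il2rb with Il6ra at r = -0.52. The genes whose levels were most like those of Il7r were Tgfbr2 (r = 0.96), Rps27 (0.96), Fau (0.96), Ankrd44 (0.95) and mt-Atp8 (0.95). Among those most like Il2rb were H2-Q6 (r = 0.96), Ptprs (0.94), Xist (0.94) and Mmd (0.93), and most like Il6ra were Stambpl1 (r = 0.95), Cbx7 (0.94), Akap8l (0.93), Arhgap4 (0.93) and Pag1 (0.93). Other receptor chains of the list had correlations of like size. Il7r was at r = -0.80 with Il21r and at -0.65 with Il18r1. Il2rb was at 0.71 with Il18r1 and at 0.66 with Il21r, and Il6ra at 0.75 with Il2rg. The sums share libraries and depth, and these values are descriptions.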

How the data were processed

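The mRNA and antibody libraries hold UMI counts per cell barcode that the authors deposited as gene by barcode matrices, made with Cell Ranger 4.0.0 per the file headers, and the submitters' processing notes name mm10 and Seurat. T cell receptor contigs come from the matched libraries.

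Cells were kept with at least 500 UMIs, 300 genes, at most 8% mitochondrial UMIs, at least 1 Cd3d, Cd3e or Cd3g UMI, at most 1 TRB chain and fewer than 2 UMIs of B cell or myeloid markers. No doublet caller was run. Barcodes with more than 1 TRB chain (296 to 372 per library) and with other markers (240 to 582) were removed. A clonotype is a shared pair of productive TRA and TRB nucleotide CDR3 sequences.

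UMIs were summed per population and library where it held at least 20 cells, and tested with edgeR 4.0.16 (R 4.3.3, quasi-likelihood, TMM, filterByExpr) in a joint fit of 6 populations with the library as a block, adjusted by Benjamini-Hochberg over 10630 or 10200 genes. Populations of the same number come from the same library, and their deviations correlated at 0.0354 to 0.406 between CD62L and lineage groups and -0.0262 to 0.207 between clone groups. DESeq2 1.42.0, other scalings, filters and gates, and each library left out were alternatives. The fits were tried on simulated counts only for CD62L-low against CD62L-high CD8 cells and for expanded against single CD62L-low CD8 cells. No other comparison was simulated, and the outcome is not given here. Thinning, shares and figures used Python 3.11.15, numpy 2.4.6, pandas 2.3.3 and matplotlib 3.10.9. Totals of 26861163 to 37834174 UMIs per library set the precision, and intervals and floors cover counting error only.

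The 10 genes, the gene lists and the gates were chosen with earlier results of these data known. All 10 genes were named whatever their values, other genes of each list only where called and among the 4 largest absolute log2 fold changes of their list in a comparison, and for Il7r, Il2rb and Il6ra the 5 genes with the highest Pearson correlation over the 24 sums. Some genes that this rule names are not reported here. Coordinates and promoter sequences are RefSeq's on GRCm38.p6. Promoters were matched for 8 of the 10 genes.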

Additional observations from a re-analysis of the deposited data

Results flagged for a closer look

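In 110 groups of 4 libraries examined, 5 held a library whose level stood apart from the other 3 by more than the gap allowed at the 95% level, and chance alone flags about 1 in 20 groups. Il18r1 accounts for 3 of them. In CD62L-low CD4 conventional cells it was at 44.4 CPM in replicate 1, against 87.5 to 90.1 CPM in the others. In CD62L-low Treg it was at 101 CPM in replicate 1, against 137 to 141 CPM. In expanded CD62L-low CD8 cells it was at 73.1 CPM in replicate 2, against 52.4 to 54.9 CPM. Il21r in CD62L-low CD4 conventional cells was at 190.6 CPM in replicate 4, against 167 to 169 CPM. Il27ra in single CD62L-low Treg was at 236 CPM in replicate 2, against 195 to 200.4 CPM.

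For 11 values the difference between lineages was itself tested and called (edgeR quasi-likelihood test, adjusted over all genes). The CD62L effect in CD8 minus that in CD4 conventional cells was -1.48 for Il2rb, -1.61 for Il6ra, -2.73 for Il12rb2 and -0.60 for Il18r1 on the log2 scale. In Treg minus CD4 conventional cells it was -1.78 for Il2rb, 0.50 for Il2rg and 1.05 for Il4ra. The effect of expansion in CD8 minus CD4 conventional cells was -0.44 for Il2rg, -3.23 for Il6ra, 1.17 for Il18r1 and -0.56 for Il27ra.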

How the results depend on the processing

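The 13 comparisons are named here as CD62L (CD62L-low over CD62L-high cells), expansion (expanded over single CD62L-low cells), CD8 cells or Treg of a CD62L class over CD4 conventional cells of that class, and the differences of CD62L or expansion effects between a lineage and CD4 conventional cells. Of 130 values of the 10 genes over 13 comparisons, 74 were called, and 26 of these kept direction and call under every alternative run. Over 2781 alternative values, 2472 kept their side of the threshold, 225 lost a call and 62 gained one in the same direction, and 22 changed sign with a call before or after. Of the 1190 alternatives to values that were not called, 92 had the other sign. The largest losses among the called values were 22 with 1 cell per clonotype, 21 with replicates 1 and 2 alone, 19 after thinning to 1500 UMIs, 18 with replicates 3 and 4 alone and 17 when scaled by cell number, where 14 more changed sign. Of the called values, DESeq2 lost 2 and RLE scaling kept all 74. The fits on replicates 1 and 2 or 3 and 4 alone were chosen after seeing the data. The cause of these changes was not tested, beyond the fewer cells, UMIs or libraries that the alternatives leave. Il12rb2 had few UMIs in every population. Cells were few in CD62L-high Treg (34 to 75 per library) and in expanded CD62L-low Treg (18 to 78 per library).

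With cell-number scaling these values changed sign with a call before or after. Il21r was 0.53 for CD62L in CD8 cells, 0.37 for CD62L in CD4 conventional cells, 1.02 for expansion in CD8 cells and 0.52 for expansion in CD4 conventional cells. Il27ra was 0.19 for CD62L in CD4 conventional cells, 0.19 for CD62L-low CD8 cells, 0.67 for CD62L-low Treg, 0.40 for CD62L-high Treg, 0.12 for expansion in CD8 cells and 0.23 for expansion in CD4 conventional cells. Il2rg was 0.24 for CD62L-low CD8 cells, 0.39 for CD62L-high CD8 cells, 0.67 for CD62L-high Treg, 0.13 for expansion in CD8 cells, 0.13 for expansion in CD4 conventional cells and 0.0047 for the expansion difference. Il18r1 was 0.0077 for CD62L-low CD8 cells and 0.087 for expansion in CD4 conventional cells. Il4ra was 0.21 for CD62L-low CD8 cells and 0.77 for CD62L-high Treg. Ifngr1 was 0.23 for expansion in CD8 cells. Without cycling cells, Il2rg changed sign for CD62L-low CD8 cells, to 0.029.

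With that scaling the counts of genes called moved to 7086 (6678 higher and 408 lower) in place of 4596 (2565 and 2031) for CD62L in CD8 cells, 6997 (6592 higher and 405 lower) in place of 4281 (2302 and 1979) for CD62L in CD4 conventional cells, 471 (389 higher and 82 lower) in place of 540 (269 and 271) for CD62L in Treg, 7501 (6939 higher and 562 lower) in place of 4657 (2422 and 2235) for CD62L-low CD8 cells, 4857 (4636 higher and 221 lower) in place of 1427 (736 and 691) for CD62L-high CD8 cells and 8118 (7928 higher and 190 lower) in place of 2703 (1387 and 1316) for CD62L-low Treg. They further moved to 7883 (7814 higher and 69 lower) in place of 2622 (1455 and 1167) for CD62L-high Treg, 190 (79 higher and 111 lower) in place of 439 (152 and 287) for the CD62L difference of CD8, 402 (8 higher and 394 lower) in place of 327 (105 and 222) for the CD62L difference of Treg, 8273 (8033 higher and 240 lower) in place of 3759 (2015 and 1744) for expansion in CD8 cells, 6877 (6674 higher and 203 lower) in place of 2279 (1112 and 1167) for expansion in CD4 conventional cells, 154 (135 higher and 19 lower) in place of 178 (82 and 96) for expansion in Treg and 1876 (1782 higher and 94 lower) in place of 600 (276 and 324) for the expansion difference. It put the median log2 fold change of all genes at 0.59 for CD62L in CD8 cells, 0.47 for CD62L in CD4 conventional cells, 0.20 for CD62L in Treg, 0.52 for CD62L-low CD8 cells, 0.40 for CD62L-high CD8 cells, 0.69 for CD62L-low Treg, 0.97 for CD62L-high Treg, 0.12 for the CD62L difference of CD8, -0.30 for the CD62L difference of Treg, 1.04 for expansion in CD8 cells, 0.56 for expansion in CD4 conventional cells, 0.27 for expansion in Treg and 0.49 for the expansion difference.

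Among all genes, the number called with 1 cell per clonotype was 1944 for CD62L in CD8 cells, 2095 for CD62L-low CD8 cells, 118 for the CD62L difference of CD8, 143 for the CD62L difference of Treg, 1237 for expansion in CD8 cells, 703 for expansion in CD4 conventional cells, 16 for expansion in Treg and 16 for the expansion difference. After thinning to 1500 UMIs it was 1545 for CD62L in CD8 cells, 2324 for CD62L in CD4 conventional cells, 2017 for CD62L-low CD8 cells, 754 for CD62L-high CD8 cells, 1114 for CD62L-low Treg, 497 for CD62L-high Treg, 199 for the CD62L difference of CD8, 63 for the CD62L difference of Treg, 1166 for expansion in CD8 cells, 983 for expansion in CD4 conventional cells and 243 for the expansion difference. Without cycling cells it was 2178 for CD62L in CD8 cells, 899 for CD62L in Treg, 2413 for CD62L-low CD8 cells, 987 for CD62L-high Treg, 184 for the CD62L difference of Treg, 1403 for expansion in CD8 cells and 152 for the expansion difference. Replicates 1 and 2 alone gave 2296 for CD62L in CD8 cells, 260 for CD62L in Treg, 1706 for CD62L-low CD8 cells, 696 for CD62L-high CD8 cells, 1571 for CD62L-low Treg, 1386 for CD62L-high Treg, 118 for the CD62L difference of CD8, 2096 for expansion in CD8 cells, 1334 for expansion in CD4 conventional cells, 269 for expansion in Treg and 157 for the expansion difference. Replicates 3 and 4 alone gave 2640 for CD62L in CD4 conventional cells, 111 for CD62L in Treg, 826 for CD62L-high CD8 cells, 1351 for CD62L-low Treg, 1313 for CD62L-high Treg, 67 for the CD62L difference of Treg, 2340 for expansion in CD8 cells, 1425 for expansion in CD4 conventional cells, 39 for expansion in Treg and 383 for the expansion difference. Stricter CD62L gates gave 2415 for expansion in CD8 cells, 21 for expansion in Treg and 145 for the expansion difference. Treg gated by at least 2 Foxp3 UMIs gave 71 for CD62L in Treg, 504 for the CD62L difference of Treg and 90 for expansion in Treg. Cells of any CD62L count gave 4751 for expansion in CD4 conventional cells, 1121 for expansion in Treg and 1299 for the expansion difference. With barcodes of B cell and myeloid markers kept, it was 864 for CD62L in Treg and 379 for expansion in Treg. Fitting only the populations compared gave 336 for CD62L in Treg and 18 for expansion in Treg. No filter on low counts gave 487 for expansion in Treg and 994 for the expansion difference. Expansion from 3 cells gave 302 for expansion in Treg. Only cells with a TRB chain gave 171 for the CD62L difference of Treg. Leaving out each replicate in turn gave 276 to 356 for CD62L in Treg, 3042 to 4621 for CD62L-low CD8 cells, 889 to 1193 for CD62L-high CD8 cells, 1790 to 2191 for CD62L-low Treg, 1333 to 2619 for CD62L-high Treg, 121 to 487 for the CD62L difference of CD8, 84 to 377 for the CD62L difference of Treg, 25 to 342 for expansion in Treg and 174 to 527 for the expansion difference.

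Without the replicate block, that is with the pairing of populations from the same library ignored, 12 of the called values lost their call: Il18r1 for CD62L in CD8 cells (0.43, adjusted p = 0.167), Il4ra for CD62L in Treg (-0.50, adjusted p = 0.108), Il4ra for CD62L-low CD8 cells (-0.31, adjusted p = 0.0707), Ifngr1 for CD62L-high CD8 cells (0.57, adjusted p = 0.0724), Il2rg for CD62L-high Treg (-0.28, adjusted p = 0.0525), Il18r1 for CD62L-high Treg (0.52, adjusted p = 0.246), Il18r1 for the CD62L difference of CD8 (-0.62, adjusted p = 0.389), Il2rg for the CD62L difference of Treg (0.49, adjusted p = 0.0767), Il18r1 for expansion in CD8 cells (0.70, adjusted p = 0.165), Il18r1 for expansion in CD4 conventional cells (-0.45, adjusted p = 0.294), Il6ra for expansion in Treg (-1.02, adjusted p = 0.072) and Il18r1 for the expansion difference (1.15, adjusted p = 0.189). The count of genes called was then 338 for CD62L in Treg, 239 for the CD62L difference of CD8, 191 for the CD62L difference of Treg, 69 for expansion in Treg and 357 for the expansion difference. It changed no other call of the 10 genes among the called values.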
